A study of Mus musculus with 12 samples.

Results

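The genes described here are 7 subunits of the GABA-A receptor: the α genes Gabra2, Gabra3, Gabra4 and Gabra5, the β genes Gabrb1 and Gabrb2, and the γ gene Gabrg1. They were taken by name from the 50600 genes counted in every library, and all 7 were among the 17847 genes that passed the low-count filter. The libraries hold cortical RNA of C57BL/6 mouse embryos of day 11 (E11), day 13 (E13) and day 17 (E17) and of pups of postnatal day 1 (P1), and the 3 of each age are named A, B and C. No treatment or altered allele is named in the labels, so age is the only factor that differs by design. Each library is the cortex of 1 animal, and each animal of an age was from its own litter. Because whole cortex was used, more cells of a type and more RNA per cell cannot be told apart in any level below.

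GABA-A receptors are pentameric channels that open to chloride and bicarbonate when GABA binds. Most combine α and β subunits with a γ subunit; GABA binds where β meets α, and the kind of α subunit sets much of the receptor's kinetics, place on the neuron and response to drugs. In the immature cortex, neurons hold more chloride than adult ones, so that GABA can depolarise them, and the loss of this state goes with a rise of the chloride exporter KCC2.

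The genes lie in clusters. In GRCm38 (GENCODE M21), Gabrg1, Gabra2, Gabra4 and Gabrb1 lie on chromosome 5 in that order, Gabra5 lies on chromosome 7 beside Gabrg3, Gabra3 lies on the X chromosome beside Gabrq, and Gabrb2 lies on chromosome 11 beside Gabra6. Their Ensembl identifiers are ENSMUSG00000000560 (Gabra2), ENSMUSG00000031343 (Gabra3), ENSMUSG00000029211 (Gabra4), ENSMUSG00000055078 (Gabra5), ENSMUSG00000029212 (Gabrb1), ENSMUSG00000007653 (Gabrb2) and ENSMUSG00000001260 (Gabrg1). Gabra4 and Gabrb1 share 46 exonic bases on opposite strands, and Gabra5 shares 148 exonic bases with the antisense gene Gm9962. The strand setting of the counting is not given in the sources used here. Gm9962 itself held between 0 and 26 reads in any library.

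The promoter windows of the 4 α genes are shown because the shares of these genes are followed below. Each runs from 250 bases before to 50 bases after an annotated start, 5′ to 3′ on the gene's own strand, from RefSeq (GRCm38.p6). All 7 genes matched the RefSeq table, with 11 windows in all. Gabra3 has 2 windows, of which the first listed is printed. Capitals mark motif matches, read on either strand. The Gabra2 window lies at chr5:71095800-71096099, the Gabra3 window at chrX:72656870-72657169, the Gabra4 window at chr5:71658259-71658558 and the Gabra5 window at chr7:57510010-57510309, all on the minus strand.
Gabra2: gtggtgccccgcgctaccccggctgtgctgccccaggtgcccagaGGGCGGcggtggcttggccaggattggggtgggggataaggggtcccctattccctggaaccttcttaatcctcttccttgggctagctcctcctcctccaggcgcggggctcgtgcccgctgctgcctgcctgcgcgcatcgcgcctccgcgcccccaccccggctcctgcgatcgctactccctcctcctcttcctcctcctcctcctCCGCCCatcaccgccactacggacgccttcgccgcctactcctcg
Gabra3: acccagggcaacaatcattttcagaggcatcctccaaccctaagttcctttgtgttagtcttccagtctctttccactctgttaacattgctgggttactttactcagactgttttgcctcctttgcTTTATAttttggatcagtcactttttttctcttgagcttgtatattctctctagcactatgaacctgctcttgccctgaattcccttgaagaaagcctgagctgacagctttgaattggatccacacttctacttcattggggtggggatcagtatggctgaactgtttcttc
Gabra4: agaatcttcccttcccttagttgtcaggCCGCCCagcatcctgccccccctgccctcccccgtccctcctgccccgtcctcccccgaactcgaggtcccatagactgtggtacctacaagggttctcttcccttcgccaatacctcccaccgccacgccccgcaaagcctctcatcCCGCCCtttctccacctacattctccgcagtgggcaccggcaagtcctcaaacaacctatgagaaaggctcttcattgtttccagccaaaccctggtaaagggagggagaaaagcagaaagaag
Gabra5: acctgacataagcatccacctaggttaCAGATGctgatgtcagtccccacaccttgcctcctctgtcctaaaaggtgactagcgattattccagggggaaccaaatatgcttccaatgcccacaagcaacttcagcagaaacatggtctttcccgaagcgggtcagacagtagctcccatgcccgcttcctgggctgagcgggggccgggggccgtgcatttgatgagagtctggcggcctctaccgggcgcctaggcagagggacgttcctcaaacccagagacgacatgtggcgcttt

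These windows differed in base composition. The Gabra2 window held 70.0% G and C with an observed over expected CpG ratio of 0.721, and the Gabra3 window held 43.0% G and C and no CpG. Between them, the Gabra4 window held 58.7% G and C and the Gabra5 window 56.7%. Medians over 32851 promoter windows were 52.7% G and C and a CpG ratio of 0.384. Motifs searched were the E-box CAGATG, the GC box GGGCGG, the TATA box TATAAA, the CRE core TGACGT and the EGR core GCGGGGGCG, the last of which can overlap a GC box. Gabra2 and Gabra4 each held 2 matches to the GC box and Gabra5 held 1 to the E-box. Gabra3 held 1 match to the TATA box letters, on the strand opposite to the gene. Of all windows, 35.7% held a GC box, 13.6% a TATA box, 17.2% an E-box, 7.51% a CRE core and 2.91% an EGR core. A match is a description of the letters and was not tested for binding.

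Library totals lay between 28173745 and 45858712 counts, and no pair of libraries within an age differed by as little as sampling noise. Over 10 pan-neuronal marker genes, the summed level was 1331 to 1547 CPM (counts scaled to the library's size) at E11, 2553 to 3055 at E13, 10510 to 10680 at E17 and 11020 to 11380 at P1. The summed level of 9 radial glia markers was 2815 to 2880 CPM at E11, 2739 to 2811 at E13, 1221 to 1414 at E17 and 988 to 1030 at P1. Markers of meninges (8 genes) summed to 1200 to 1465 CPM at E11, 801 to 1099 at E13, 14.4 to 16.9 at E17 and 14.1 to 53.7 at P1. Projection neuron markers of the cortex (7 genes) were present at every age, from 327 to 389 CPM in sum at E11, 1062 to 1437 at E13, 2239 to 2643 at E17 and 1887 to 1994 at P1. Of these 4 lists 1 gene was ever at 0, Foxc2 of the meningeal list in P1 B and P1 C. Erythroid markers (9 genes) summed to 5423 to 15710 CPM at E11 and 564 to 1433 at E13. Their sums were 40.6 to 88.8 CPM at E17 and 13.4 to 23.8 at P1. Choroid plexus markers (7 genes) summed to 96.5 to 268 CPM at E11 and 43.4 to 399 at E13. At E17 and P1 these were 1.03 to 9.24 and 1.83 to 2.53 CPM. Both of these lists held genes at 0 at E17, and the erythroid list also at P1. Summed levels thus differed between ages for all of these lists, and their part in the results below was not tested.

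Among the α genes, levels in CPM followed 4 different courses. Gabra2, which encodes α2, a subunit placed at synapses on the axon initial segment among other sites, had 7.03, 7.72 and 4.78 CPM at E11 (libraries in the order A, B, C, here and below), 19.0, 18.0 and 17.9 at E13, 46.1, 78.8 and 48.3 at E17, and 34.1, 36.0 and 33.0 at P1. Every P1 library lay below every E17 library, and E17 B stood above the other E17 libraries. Gabra3, which encodes α3, had 8.92, 12.0 and 10.1 CPM at E11, 7.75, 7.72 and 9.14 at E13, 52.5, 52.1 and 53.2 at E17, and 71.0, 74.6 and 88.9 at P1. Its E11 and E13 values overlapped, and its 3 E17 libraries lay within a factor of 1.02. Gabra4, which encodes α4, known in the adult from extrasynaptic receptors, had 3.93, 4.69 and 3.15 CPM at E11, 8.52, 11.2 and 7.35 at E13, 17.2, 23.0 and 14.02 at E17, and 24.4, 22.9 and 29.0 at P1. In Gabra4 the ranges of E17 and P1 overlapped, with E17 B just above P1 B. Gabra5, which encodes α5, best known from tonic inhibition in the hippocampus, had 0.443, 0.295 and 0.223 CPM at E11, 1.38, 2.08 and 2.01 at E13, 42.6, 56.2 and 30.1 at E17, and 95.6, 109.7 and 111.4 at P1. Its E11 values rest on 15, 10 and 7 reads, and no neighbouring ages overlapped.

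Both β genes had their largest step between E13 and E17. Gabrb1, which encodes β1, had 0.709, 0.678 and 0.350 CPM at E11, 2.65, 4.07 and 3.27 at E13, 43.9, 73.2 and 38.2 at E17, and 55.2, 64.3 and 58.8 at P1. E17 B lay above all 3 P1 libraries, so these ages overlapped, and the E11 values rest on 24, 23 and 11 reads. Gabrb2, which encodes β2, had 2.98, 3.83 and 4.43 CPM at E11, 4.55, 4.24 and 3.86 at E13, 87.2, 85.8 and 80.9 at E17, and 116.2, 106.1 and 110.0 at P1. Its first 2 ages overlapped, and its later ages stood apart.

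Gabrg1, which encodes γ1, had the lowest level per exon length of the 7 at P1. It had 1.00, 3.27 and 0.892 CPM at E11, 1.93, 1.74 and 0.926 at E13, 4.39, 7.52 and 2.98 at E17, and 12.6, 13.6 and 14.1 at P1. Its high value at E11 is that of E11 B, with 111 reads against 34 in E11 A and 28 in E11 C. E11 B also had the highest summed choroid plexus markers of the E11 libraries, 268 CPM against 147 in E11 A and 96.5 in E11 C (7 genes). The same library was highest at E11 for summed astrocyte, endothelium, microglia and striatum markers too. At E13 the choroid plexus markers summed to 399, 355 and 43.4 CPM, beside Gabrg1 at 1.93, 1.74 and 0.926. The part of any of these markers in the Gabrg1 values was not tested.

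**Figure D1:**
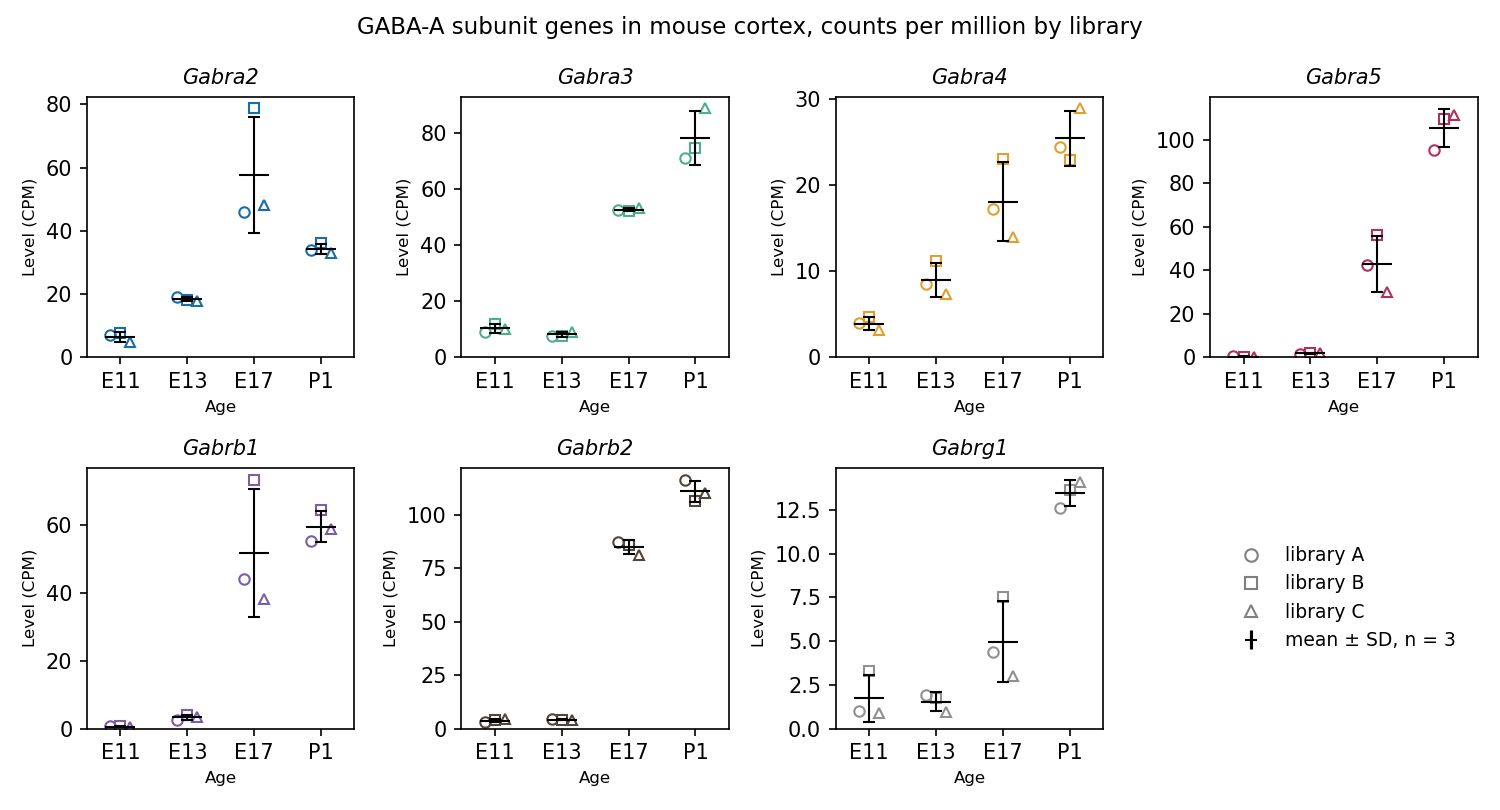
Level of each subunit gene in CPM (vertical axes, each from 0) at each age (horizontal axes); open markers are single libraries, and black bars give the mean ± SD of 3 libraries. Gabra2 averaged 18.3, 57.7 and 34.4 CPM at E13, E17 and P1, whereas Gabra5 averaged 1.82, 43.0 and 105.6 CPM at these ages.

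Summed over the 7 genes, the level was 27.1 ± 4.69 CPM at E11, 46.4 ± 2.37 at E13, 312.7 ± 56.9 at E17 and 427.2 ± 18.1 at P1 (SD, n = 3 each). The 4 α genes made up 21.1 ± 3.32, 37.3 ± 1.43, 171.4 ± 34.2 and 243.5 ± 18.6 CPM of this at E11, E13, E17 and P1. Over the 4 ages, all 7 genes changed by edgeR's quasi-likelihood test with Benjamini-Hochberg adjustment over all tested genes, with adjusted p between 8.67e-14 for Gabrb2 and 8.94e-05 for Gabrg1. Of all tested genes 90.2% changed by the same test, so that the count of 7 does not set these genes apart.

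From E11 to E13 the family split: Gabra2, Gabra4, Gabra5 and Gabrb1 were higher at E13, Gabra3 was lower, and Gabrb2 and Gabrg1 did not pass the test. The 5 of 7 that changed stand beside 40.1% of all tested genes, the 4 that were higher beside 22.6%, and the 1 that was lower beside 17.5%. All 10 pan-neuronal markers were higher at E13, with a median log2 fold change of 1.08 beside 1.20 over the 7 genes. Gabrb1 was 5.66-fold higher at E13 than at E11 (log2 fold change 2.501 ± 0.39 SE, adjusted p = 0.000461), and Gabra5 was 5.56-fold higher (2.48 ± 0.44, adjusted p = 0.000988). Gabra2 was 2.81-fold higher (1.49 ± 0.21, adjusted p = 0.000222) and Gabra4 2.29-fold higher (1.20 ± 0.22, adjusted p = 0.00100). These are the 4 genes whose E13 and E11 ranges did not overlap, as in 51.8% of all tested genes. Gabra3 changed by a log2 fold change of −0.34 ± 0.12 (adjusted p = 0.0351), with means of 8.20 ± 0.81 CPM at E13 and 10.3 ± 1.57 at E11 (SD, n = 3 each). That call was lost without E11 B (−0.21, adjusted p = 0.176), E11 C (−0.36, adjusted p = 0.0576), E13 A (−0.30, adjusted p = 0.105) or E13 B (−0.29, adjusted p = 0.126). Gabrb2 differed by 0.18 ± 0.12 (adjusted p = 0.264) and Gabrg1 by −0.17 ± 0.52 (adjusted p = 0.832); without E11 B the Gabrg1 value was 0.70 (adjusted p = 0.254).

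From E13 to E17 all 7 genes rose, and no E17 library overlapped an E13 library in any of them. Of all tested genes 73.8% changed at this step, 36.8% were higher and 37% lower at E17, and 76.1% had ranges that did not overlap. The median log2 fold change was 2.68 over the 7 genes and −0.04 over all tested genes. All 10 pan-neuronal markers were higher at E17 as well, with a median of 2.38. The sizes of the 7 rises differed widely. Gabra5 was 23.6-fold higher at E17 (4.56 ± 0.24, adjusted p = 8.67e-09), Gabrb2 20.01-fold (4.32 ± 0.10, adjusted p = 3.30e-12) and Gabrb1 15.5-fold (3.96 ± 0.26, adjusted p = 7.85e-08). In the middle lay Gabra3, 6.42-fold higher (2.68 ± 0.11, adjusted p = 1.38e-10). The smallest rises were those of Gabrg1 (3.17-fold, 1.66 ± 0.48, adjusted p = 0.00860), Gabra2 (3.15-fold, 1.66 ± 0.20, adjusted p = 1.06e-05) and Gabra4 (1.999-fold, 1.00 ± 0.20, adjusted p = 0.000648). Gabrb2, Gabra3 and Gabrg1, which had not risen by E13, thus moved with the rest at this step. Gabrb2 did so within a narrow spread, with 84.7 ± 3.30 CPM at E17 and 4.22 ± 0.35 at E13 (SD, n = 3 each).

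From E17 to P1 the α genes moved in opposite directions. Gabra2 fell to 34.4 ± 1.54 CPM at P1, against 57.7 ± 18.3 at E17 (SD, n = 3 each; 0.596-fold, log2 fold change −0.75 ± 0.19, adjusted p = 0.00692), while Gabra5 rose 2.47-fold (1.302 ± 0.19, adjusted p = 0.000169) and Gabra3 1.49-fold (0.57 ± 0.10, adjusted p = 0.000470). The fall of Gabra2 was −0.46 without E17 B and still past the test (adjusted p = 0.0125). In all, 5 of 7 genes were higher and 1 was lower at P1, where 24% of all tested genes were higher, 25.9% lower and 49.9% changed either way. The median over the 7 was 0.50 on the log2 scale and that over all tested genes was −0.00063. Of the 10 pan-neuronal markers 5 were higher and 0 lower, with a median of 0.23. Gabrg1 rose 2.74-fold (1.46 ± 0.42, adjusted p = 0.0147), although not past the test without E17 C (1.17, adjusted p = 0.0639). Gabrb2 rose 1.31-fold (0.39 ± 0.08, adjusted p = 0.00168). Gabra4 was 1.41-fold higher (0.50 ± 0.19, adjusted p = 0.0490), and its call was lost without any 1 of E11 A, E13 A, E17 A, E17 C, P1 A or P1 C, with values between 0.34 and 0.55 and adjusted p between 0.0629 and 0.187. Gabrb1 did not pass the test (0.20 ± 0.22, adjusted p = 0.465), but did so without E17 B (0.53, adjusted p = 0.0119). The ranges of 5 genes did not overlap at this step, as in 62.4% of all tested genes, and those of Gabra4 and Gabrb1 did.

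**Figure D2:**
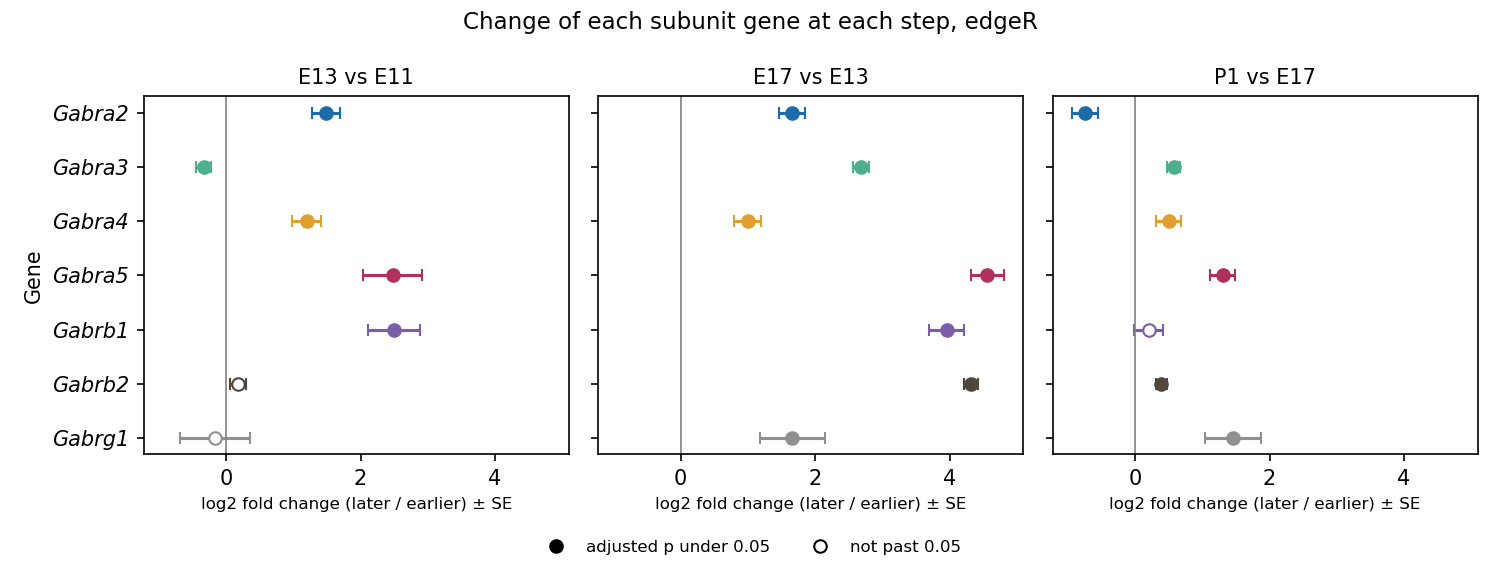
Log2 fold change of each gene (horizontal axes, later over earlier age, ± SE from edgeR) at the 3 steps; filled points had an adjusted p under 0.05 and open points did not. All 7 points lie right of 0 for E17 against E13, between 1.00 for Gabra4 and 4.56 for Gabra5, and only Gabra2 is filled and left of 0 for P1 against E17.

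Between the ends of the series, all 7 genes were higher at P1 than at E11 and had ranges that did not overlap, where 40.5% of all tested genes were higher, 41.8% lower, 82.3% changed either way and 84.5% had ranges that did not overlap. The folds ran from 5.26 for Gabra2 (2.40, adjusted p = 4.62e-07) to 324 for Gabra5 (8.34 ± 0.31, adjusted p = 1.65e-10). Gabrb1 was 101-fold higher (6.66 ± 0.33, adjusted p = 3.13e-09) and Gabrb2 29.6-fold higher (4.89 ± 0.11, adjusted p = 1.73e-13). Gabra4, Gabra3 and Gabrg1 were 6.46-, 7.56- and 7.75-fold higher. The median log2 fold change was 2.955 over the 7 genes and 3.64 over the 10 pan-neuronal markers, all of them higher at P1. The folds of Gabra5 and Gabrb1, the largest of the 7, stand against the lowest E11 counts of the family.

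The makeup of the 4 α genes turned over between ages. Each share below is a gene's part of the counts of Gabra2, Gabra3, Gabra4 and Gabra5 only, not of all α subunits. Gabra3 made up 49.3 ± 5.70% of these counts at E11, 22.0 ± 2.77% at E13, 31.5 ± 6.03% at E17 and 32.0 ± 1.67% at P1 (SD, n = 3 each; the same holds for the other shares). Gabra2 made up 30.7 ± 4.21%, 49.1 ± 2.81%, 33.3 ± 4.2% and 14.2 ± 1.39% at E11, E13, E17 and P1. Its share was thus highest at E13, an age at which its CPM was still below those of E17 and P1. Gabra5 had a larger share at each later age, with 1.53 ± 0.56%, 4.87 ± 0.97%, 24.8 ± 3.53% and 43.4 ± 1.53% at E11, E13, E17 and P1. Gabra4 made up 18.5 ± 1.08%, 24.01 ± 4.25%, 10.48 ± 0.74% and 10.4 ± 0.89% at these ages. By counts, the leading gene of the 4 was therefore Gabra3 at E11, Gabra2 at E13 and Gabra5 at P1. At E17, Gabra3 led in E17 A (33.2%, beside 29.1% for Gabra2 and 26.9% for Gabra5) and in E17 C (36.5%), while Gabra2 led in E17 B (37.5%).

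Each of these shares differed over the 4 ages by an exact permutation test of the F statistic, adjusted over the 5 shares tested, which are the 4 α shares and the β share below. The adjusted p was 0.000325 for Gabra5, whose raw p of 6.49e-05 is the smallest the design can give, 0.000812 for Gabra2, 0.000866 for Gabra4 and 0.00162 for Gabra3. Between 2 ages, 3 libraries against 3 cannot give a 2-sided exact p below 0.1, so single steps are described by their ranges. From E17 to P1 the Gabra5 share differed by 18.6 percentage points and the Gabra2 share by −19.1, with no overlap, while the Gabra3 and Gabra4 shares differed by 0.55 and −0.051 with overlap. From E13 to E17 the Gabra5 share differed by 19.9 points, that of Gabra2 by −15.8 and that of Gabra4 by −13.5, all without overlap. From E11 to E13 the Gabra3 share differed by −27.2 points and the Gabra2 share by 18.4, again without overlap. The 4 α shares add up to the whole in each library, so their tests and steps are not independent of one another. A share can fall while the gene's own level rises: Gabra4 had a lower share and a higher CPM at E17 than at E13.

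**Figure D3:**
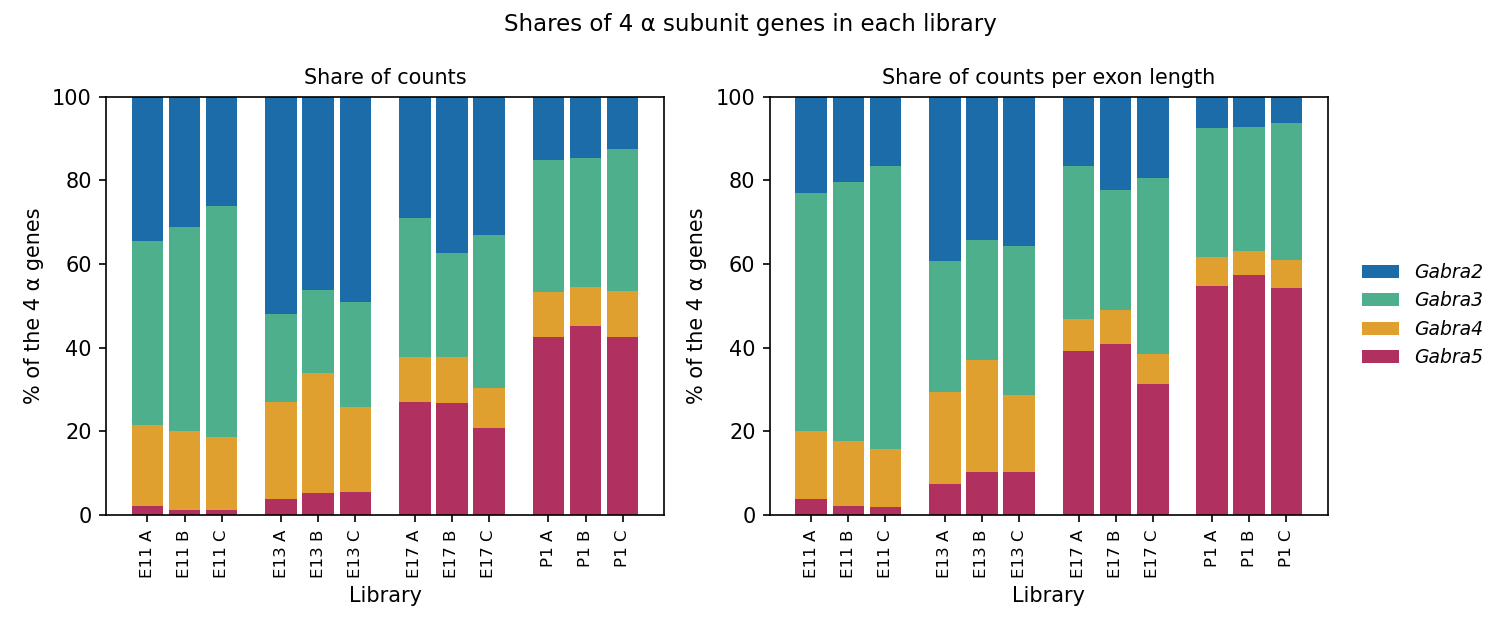
Stacked bars give, for each of the 12 libraries (horizontal axes), the share in % of Gabra2, Gabra3, Gabra4 and Gabra5 (vertical axes, 0 to 100), from counts on the left and from counts per kilobase of exon on the right. By counts, Gabra5 averaged 43.4% at P1 and 1.53% at E11, and per length 55.4% at P1 and 2.57% at E11.

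The α shares depended in part on whether counts were divided by length. Per kilobase of exon, Gabra5 made up 2.57, 9.27, 37.1 and 55.4% of the 4 α genes at E11, E13, E17 and P1, Gabra3 62.3, 31.8, 35.8 and 31.0%, Gabra2 20.01, 36.5, 19.4 and 7.05%, and Gabra4 15.2, 22.4, 7.68 and 6.52%. At E17 the largest mean share was that of Gabra5 per length and that of Gabra2 by counts. The E17 ranges of Gabra5 (31.4 to 40.8% per length) and Gabra3 (28.7 to 41.95%) overlapped, and Gabra3 led in E17 C. The Gabra3 share was higher at P1 than at E13 without overlap by counts, but per length the 2 ages overlapped, at 29.5 to 32.7% at P1 and 28.7 to 35.6% at E13.

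The β share is likewise a part of the counts of Gabrb1 and Gabrb2 only, not of all β subunits. Of the counts of the 2 β genes, Gabrb2 held 86.1 ± 6.02% at E11, 56.1 ± 6.35% at E13, 62.8 ± 7.68% at E17 and 65.1 ± 2.75% at P1 (SD, n = 3 each). In single libraries these were 80.8, 84.97 and 92.7% at E11, 63.2, 51.0 and 54.1% at E13, 66.5, 54.0 and 68.0% at E17, and 67.8, 62.3 and 65.2% at P1. Its share was lower at E13 than at E11 in every library, with a difference of −30.02 percentage points between the means, and the later ages overlapped with their neighbours. Per kilobase of exon the Gabrb2 share was 73.4% at E13 and 93.0% at E11, and per length of the longest coding transcript 81.3% at E13 and 95.5% at E11, so the size of this difference depends on the scale. By counts it differed over the 4 ages (adjusted p = 0.00422, exact permutation test). Gabrb1 rested on at most 24 reads per library at E11.

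Levels can be compared between genes only per length, here as CPM per kilobase of exon. At E11 Gabra3 was highest (2.64), followed by Gabra2 (0.852), Gabra4 (0.645) and Gabrb2 (0.589), which overlapped in turn, then Gabrg1 (0.219) and Gabra5 (0.108), which also overlapped, and last Gabrb1 (0.0419). At E13 the order was Gabra2 (2.40), Gabra3 (2.09), Gabra4 (1.48), Gabrb2 (0.663), Gabra5 (0.612), Gabrb1 (0.241) and Gabrg1 (0.195), where Gabrb2 overlapped Gabra5 and Gabrb1 overlapped Gabrg1. At E17 Gabra5 (14.45), Gabra3 (13.4) and Gabrb2 (13.3) overlapped at the top by mean. Below them came Gabra2 (7.55), Gabrb1 (3.74), Gabra4 (2.97) and Gabrg1 (0.631), with Gabrb1 and Gabra4 overlapping. Gabra3 and Gabrb2 lay above Gabra2 in range, but Gabra5 overlapped it, at 10.13 in E17 C beside 10.31 for Gabra2 in E17 B. At P1 Gabra5 (35.5) stood above all others, Gabra3 (19.9) overlapped Gabrb2 (17.4), and Gabra2 (4.498), Gabrb1 (4.30) and Gabra4 (4.18) overlapped in turn above Gabrg1 (1.71). Gabra5 thus moved from sixth place to the first within the series. The longest coding transcript was used as the length in an alternative added after the values were seen. There Gabrb2 came first at E17 (21.2, overlapping Gabra5 at 16.1) and stood above Gabra3 at P1 (27.8 beside 21.3). Gabra4 (6.19) and Gabra2 (5.87) overlapped at P1 and stood above Gabrb1 (4.33). Gabra4 came before Gabrb1 at E17, and Gabrg1 before Gabrb1 at E13, each with overlap. The places of these genes thus depend on the length used.

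At E17 the 7 genes fell into 2 kinds by their spread between animals. Gabra3 and Gabrb2 differed between the 3 libraries by a factor of at most 1.02 and 1.08. In the other 5, E17 B stood at least 1.3 times above both E17 A and E17 C, by 1.63 times the higher of them for Gabra2, 1.33 for Gabra4, 1.32 for Gabra5, 1.67 for Gabrb1 and 1.71 for Gabrg1. Of all tested genes 6.44% had E17 B that far above both others; the factor of 1.3 was chosen after the values were seen. In 4 of the 7 (Gabra4, Gabra5, Gabrb1, Gabrg1) the order was E17 B above E17 A above E17 C, as in 21.9% of all tested genes, a count likewise made after the values were seen. E17 B was also highest or lowest in most marker lists. These include microglia (39.2, 34.6 and 52.0 CPM in letter order) and endothelium (148.5, 153.6 and 129.9). Pan-neuronal markers (10 genes) were the exception, with E17 B in the middle of 10510, 10600 and 10680 CPM. Any 1 of 3 libraries often lies at an end, so such a position says little by itself. Further examples follow. Astrocyte markers (6 genes) summed to 209, 247 and 187 CPM over the E17 libraries in letter order, oligodendrocyte lineage markers (5 genes) to 145, 166 and 101, and radial glia markers to 1221, 1414 and 1267. Markers of projection neurons (7 genes) summed to 2565, 2239 and 2643 CPM and those of the striatum (9 genes) to 108, 52.7 and 75.7 in the same libraries. Their part in the spread of the subunit genes was not tested.

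**Figure D4:**
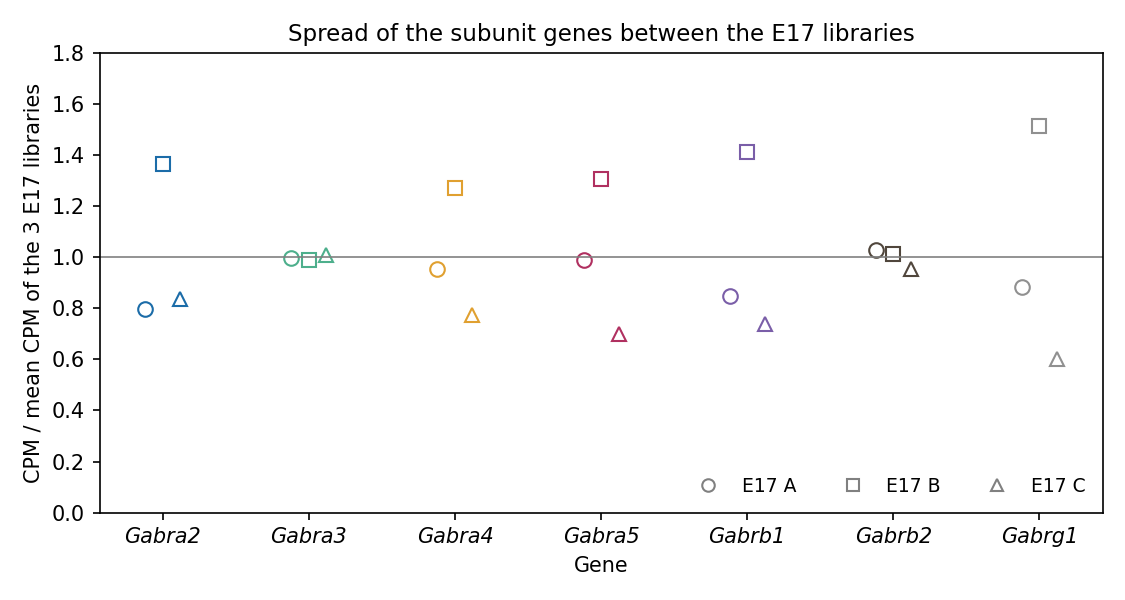
Each point is 1 E17 library's CPM divided by the mean of the 3 E17 libraries (vertical axis, from 0) for each gene (horizontal axis), with circles, squares and triangles for libraries A, B and C. E17 B (squares) is highest in 5 genes, while Gabra3 and Gabrb2 lie close to 1 in all 3 libraries.

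The genes with the pattern most like each subunit were found as those with the smallest root mean square difference in centred log2 CPM over the 12 libraries, among 13730 candidates. For Gabra3 these were Arhgap20 (0.13), Tceal6 (0.15) and Ablim1 (0.16), and for Gabra4 they were Gdf1 (0.17), Srcin1 (0.21) and Plppr1 (0.21). For Gabrb2 they were Ptprn2 (0.19), Tcerg1l (0.24) and Rimbp2 (0.24), the last a protein of the presynaptic active zone. Gabra2 was most like Cntnap4 (0.24), Rnf182 (0.24) and Rps6ka5 (0.28). Gabrb1 was most like Syt16 (0.28), the AMPA receptor subunit gene Gria1 (0.31) and Hivep3 (0.32). Genes like Gabra5 included the cation channel gene Trpc4 (0.27) and the GABA-B receptor gene Gabbr2 (0.30), and Gabrg1 had the least close partners, Fam81a (0.40), Drc1 (0.41) and Arhgef3 (0.45). No subunit of the 7 was among the 3 closest of another. The closest pair within the family was Gabra2 with Gabra4 (0.49), and the farthest was Gabra4 with Gabra5 (2.31). All 12 libraries are shared by these measures, and they describe likeness of pattern only.

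The genes around the receptor were read from 6 lists. From E13 to E17, when all 7 subunits rose, 6 of 8 tested genes for GABA synthesis, vesicle loading, uptake and breakdown rose and 1 fell (list median 2.57 on the log2 scale), beside 36.8% and 37% of all tested genes. Slc6a11, the GABA transporter GAT-3 of astrocytes, had 74.0 CPM at E17 and 1.63 at E13 (5.52 ± 0.32, adjusted p = 4.86e-08), and Gad1, which makes GABA from glutamate, had 55.4 and 4.30 (3.70 ± 0.53, adjusted p = 0.000138). Slc6a13, a GABA transporter known from meninges, had 0.0953 CPM at E17 and 6.14 at E13 (−5.86 ± 1.05, adjusted p = 0.000448). The summed meningeal markers above were lower at E17 too. From E11 to E13 Slc6a13 was higher (0.855 CPM at E11, 2.83 ± 0.76, adjusted p = 0.0136), while those markers were lower at E13. That call was lost with E11 C, E13 C and E17 A left out (2.52, adjusted p = 0.112). At P1, Slc6a13 had 2.24, 0.155 and 0.119 CPM in libraries A, B and C, beside 53.7, 14.1 and 15.95 for the meningeal markers. At E11 it had 0.916, 1.27 and 0.382 CPM beside 1200, 1413 and 1465. At E13 it had 5.98, 6.60 and 5.83 CPM beside 886, 801 and 1099. The part of meninges in these values was not tested. Summed interneuron and ventral telencephalon markers (12 genes) were 494 to 530 CPM at E17 and 93.3 to 130.5 at E13, with Lhx8 at 0 in E17 B and Dlx6 at 0 in E13 A, and their part in the Gad1 value was not tested. Of 8 further subunit genes on the list, 3 passed the low-count filter: Gabrg3 (γ3) had 11.2 CPM at E17 and 0.241 at E13 (5.54 ± 0.26, adjusted p = 2.95e-10), whereas Gabre (ε) had 0.220 and 4.37 (−4.21 ± 0.32, adjusted p = 3.65e-08). The third, Gabrq (θ), was lower at E17 (−0.65 ± 0.24, adjusted p = 0.0249), a call lost without E13 C, E17 A or E17 B (−0.62 to −0.51, adjusted p 0.0605 to 0.105).

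Scaffold and chloride genes took different courses. Of 7 genes for the inhibitory postsynaptic scaffold and adhesion, 6 were higher and none was lower at E17 than at E13, where 36.8% of all tested genes were higher, led by Iqsec3 (2.89 ± 0.11, adjusted p = 6.84e-11), which binds gephyrin, and Slitrk3 (2.61 ± 0.19, adjusted p = 9.54e-08), an adhesion protein of inhibitory synapses. Of the 2 chloride cotransporters, Slc12a5 (KCC2, the exporter) had 40.7 CPM at E17 and 4.74 at E13 (3.10 ± 0.19, adjusted p = 2.13e-08), and Slc12a2 (NKCC1, the importer) had 65.2 and 77.3 (−0.25 ± 0.06, adjusted p = 0.00256). Both GABA-B receptor genes rose, Gabbr2 by 4.83 ± 0.17 (adjusted p = 1.09e-10). Of 17 genes for assembly, trafficking and auxiliary proteins, 12 were higher and 3 lower, where 73.8% of all tested genes changed, with Shisa7, an auxiliary subunit of the receptor, up by 2.47 ± 0.12 (adjusted p = 1.09e-09) and Hap1, which carries receptors along microtubules, at −1.74 ± 0.07 (adjusted p = 7.43e-11).

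From E11 to E13, 2 genes for GABA synthesis and handling were higher and 1 lower of the 8 tested, close to the 40.1% of all tested genes that changed, and Gad1 did not pass the test (1.88 ± 0.69, adjusted p = 0.0568). This count of 3 was 7 without E11 C. That library had the highest summed interneuron markers at E11 (113 CPM, against 77.1 and 80.6 in E11 A and B). With limma-voom, which kept E11 C in the fit, the count was 6. Its closeness to 40.1% thus depended on the tool as well as on E11 C. Among scaffold genes 6 of 7 were already higher at E13 than at E11, beside 22.6% of all tested genes, with Insyn2a at 2.69 ± 0.14 (adjusted p = 5.71e-08) and Slitrk3 at 2.39 ± 0.24 (adjusted p = 1.38e-05), while neither chloride cotransporter passed the test; without E11 B, Slc12a5 was lower at E13 (−0.61, adjusted p = 0.0202). From E17 to P1, Slc12a5 rose again (1.16 ± 0.16, adjusted p = 0.000145), as did Gabrg3 (0.95 ± 0.16, adjusted p = 0.000343) and Slc6a11 (1.46 ± 0.22, adjusted p = 0.000390). Gad1 (0.08 ± 0.44, adjusted p = 0.905) did not pass the test at this step. Of the 7 scaffold genes 4 were higher at P1, where 24% of all tested genes were, and Insyn2a was lower (−0.81 ± 0.11, adjusted p = 6.84e-05).

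**Figure D5:**
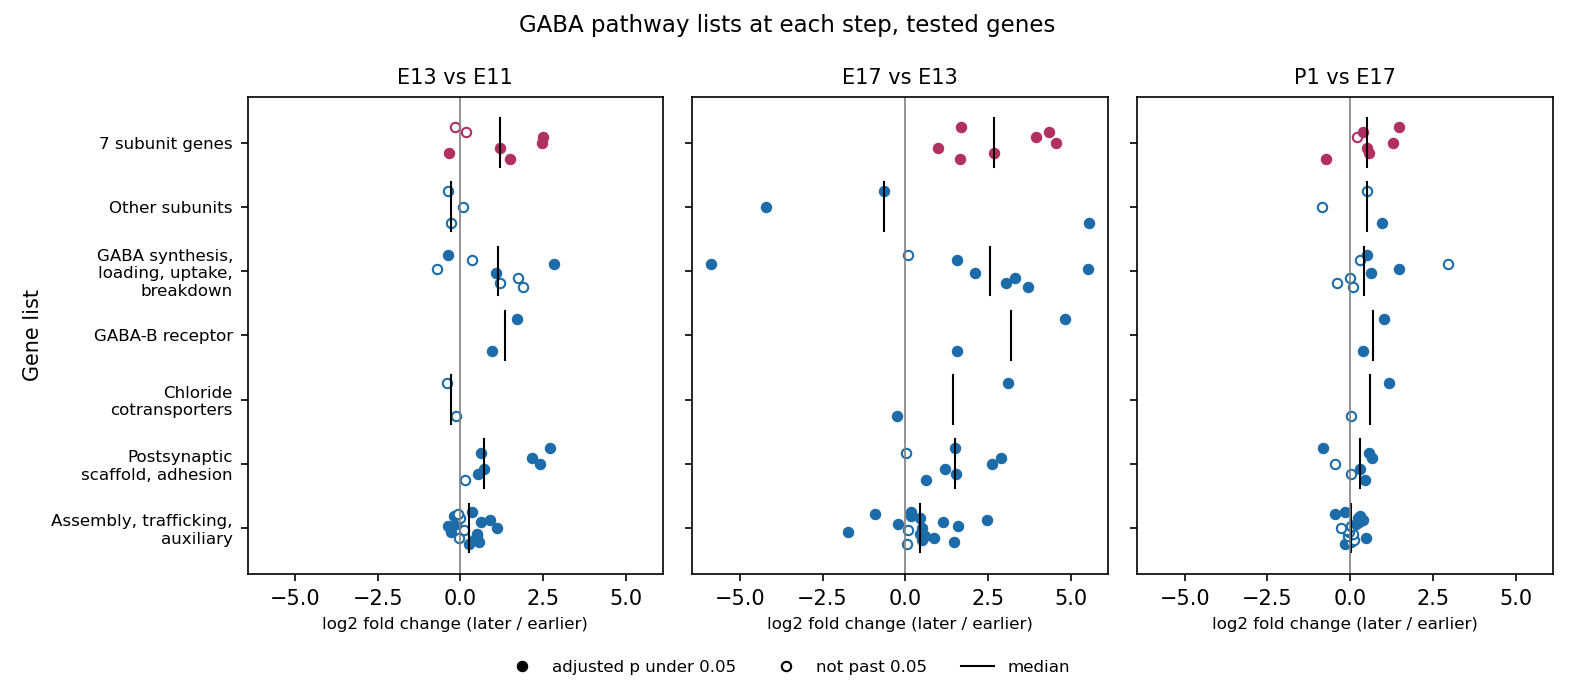
Log2 fold change (horizontal axes, later over earlier age) of each tested gene of the 7 subunits and the 6 lists (rows) at the 3 steps; filled points had an adjusted p under 0.05, and black lines are list medians. At E17 against E13 the median was 2.68 for the 7 subunits, 2.57 for GABA synthesis and handling, 1.49 for scaffold and adhesion genes and 0.45 for assembly and trafficking genes.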

How the data were processed

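RNA of 12 mouse cortices was measured, 3 at each of 4 ages. Polyadenylated RNA was sequenced with a stranded Illumina kit as single reads, per the labels' protocols. The deposited values are raw read counts per Ensembl gene, with no normalization by the authors. The submitters' processing notes list, without roles, STAR 2.5.2b and HTSeq 0.5.3 beside bcl2fastq 2.18, DESeq2 1.8.1 and SAMtools. The genome build and gene annotation were not given in the sources used here.

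Counts were fitted with edgeR 4.0.16 (R 4.3.3; TMM factors 0.92 to 1.09, filterByExpr with a minimum count of 10, robust quasi-likelihood F tests) over all 12 libraries with 1 coefficient per age, and p-values were adjusted by the Benjamini-Hochberg method over 17847 genes; the threshold was 0.05. SEs are the log2 fold change over the square root of F. CPM uses TMM-scaled library sizes. Shares were compared by exact permutation of the ages over the 12 libraries. Scripts were tested on simulated data. Lengths come from GENCODE M21. All 7 subunit genes are named at every step, of each other list at most the 2 largest rises and falls past the threshold with at least 1 CPM, and for likeness up to 3 of the nearest genes. Gad1 is also named where it missed the threshold, chosen after its values were seen. Alternatives were other scalings, filters and tools (DESeq2 1.42.0, limma-voom 3.58.1), a replicate block and libraries left out. Genes, lists and rules were chosen with earlier results of these data known, and the promoter motifs after the files were seen. Results of some related genes are not reported here.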

Additional observations from a re-analysis of the deposited data

How the results depend on the processing

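The 5 share tests stayed past the threshold under all alternatives run, and the counts of subunit genes changed stayed within 1.5 times their values in the report. Leaving out single libraries gave 4 to 5 subunit genes changed for E13 against E11, 7 for E17 against E13, 4 to 7 for P1 against E17, and 7 for P1 against E11 and over all ages. Single genes changed more. Gabrg1 at E13 against E11, never past the test, turned to 0.034 with limma-voom (adjusted p = 0.967), 0.70 without E11 B (adjusted p = 0.254) and 0.09 without E13 C (adjusted p = 0.925), within a range of −0.47 to 0.70 over single libraries left out. The Gabra3 call at this step was also lost with limma-voom (−0.33, adjusted p = 0.102), with only the libraries of both ages (−0.34, adjusted p = 0.0777), and with 3 libraries (E17 A, E13 C, E11 C) left out at once (−0.44, adjusted p = 0.0529). For P1 against E17, Gabra4 was also lost with library size alone (0.48, adjusted p = 0.0547), with no low-count filter (0.51, adjusted p = 0.123) and without those 3 libraries (0.47, adjusted p = 0.0875), and Gabrg1 with no filter (1.47, adjusted p = 0.0546). The cause was not tested.

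Library size alone moved the median log2 fold change of all genes for E17 against E13 to −0.22, against −0.04 with TMM, and the part of changed genes that were higher to 39.8%, against 49.8%; for P1 against E11 the median was −0.26 and the part 41.5%, against 49.2% with TMM. With upper-quartile factors these medians were −0.12 and −0.13.

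The letters A, B and C did not pair the libraries: same-letter deviations correlated between −0.34 and 0.33, and 5 of 12 libraries correlated best with their own letter. With the letter as a replicate block, 5, 7, 6 and 7 subunit genes changed for E13 against E11, E17 against E13, P1 against E17 and P1 against E11, the same as without it, and the shares had adjusted p of 0.00651 to 0.00694. Shares over every gene of each class were planned and not run. With 3 libraries an age, no single share step can pass a threshold of 0.05, and E11 levels of Gabra5 and Gabrb1 rest on few reads.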
